A study of Mus musculus with 16 samples.

Results

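Sensory neurons of the vagal ganglia were compared with sensory neurons of the lumbar dorsal root ganglia (DRG). The vagal samples came from the fused nodose and jugular ganglion complex (NG/JG), and the DRG samples from lumbar levels 3 to 5 (L3-L5). The comparison used 8 of the 16 libraries of the series, 4 NG/JG and 4 L3-L5 DRG, chosen by their ganglion labels alone. All 8 came from male C57BL/6J mice, 8 to 12 weeks old, carrying Pirt cre/- and Rosa26 LSL-tdTomato/+, a reporter line in which Cre from the Pirt locus turns on the red fluorescent protein TdTomato in sensory neurons. Left and right ganglia were dissected, enzymatically dispersed, and sorted through 2 cycles for medium-to-bright TdTomato+ cells, so neurons with weak reporter signal were left out. Each library is SMART-seq2 RNA-seq of such a sorted population. The labels do not say that each library came from a separate animal, so p-values measure the spread between these libraries only.

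Nodose neurons arise from epibranchial placodes and carry visceral signals from the heart, lungs and gut to the brainstem, while jugular and DRG neurons arise from the neural crest. Lumbar DRG neurons carry touch, temperature, itch and pain from the hind limb, and also innervate pelvic organs and deep tissue. Hox transcription factors record position along the body axis: genes with low paralog numbers are used in the hindbrain and neck, and those with high numbers in lumbar and sacral segments.

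With edgeR's quasi-likelihood method, 0 of 12240 tested genes (0%) passed at an adjusted p of 0.05, and 0.168 was the lowest value reached. An unadjusted p under 0.05 was reached by 739 genes (6.04%), 288 higher in NG/JG (2.35%) and 451 higher in L3-L5 DRG (3.68%). DESeq2 on the same counts called 334 genes (2.73%), 72 higher in NG/JG (0.588%) and 262 higher in L3-L5 DRG (2.14%). Of these, 308 had no overlap between the 4 libraries of one ganglion and the 4 of the other, a pattern that 267 tested genes showed with NG/JG higher (2.18%) and 635 with L3-L5 DRG higher (5.19%). Criteria like those of the study, a fold above 5 and a mean RPKM above 5 in the higher ganglion, together with an unadjusted edgeR p under 0.05, left 56 genes higher in NG/JG (0.458%) and 190 higher in L3-L5 DRG (1.55%). With the DESeq2 adjusted p in its place they left 37 (0.302%) and 132 (1.08%). Below, a gene is called higher or lower by its level, since edgeR called none, and a DESeq2 call is stated where there was one. A gene with almost no reads in one ganglion passed the count filter through the other, so it could be called in one direction only. Nothing is read from list counts that rest on such genes. Levels are CPM, read counts normalised to library size with TMM scaling, given for libraries 1, 2, 3 and 4 of a ganglion in that order. Fold changes are on the log2 scale, positive where NG/JG was higher, with the standard error (SE), and their median over all tested genes was 0.01. Fewer neurons of a type and less RNA per neuron cannot be told apart in such bulk libraries.

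The NG/JG libraries correlated with each other no better than with the DRG libraries. Reads on genes ranged from 7187906 to 9675318 in NG/JG and from 4735624 to 12136228 in L3-L5 DRG. Genes with at least 1 read numbered 10132 to 13029 per NG/JG library and 13617 to 18571 per DRG library, a mean difference of -3555.8 genes, with p = 0.0286 in a two-sided exact permutation test, the lowest value 4 against 4 libraries can give. The same p was found after all libraries were thinned to 4735624 reads. Spearman correlations across genes were 0.533 to 0.618 between NG/JG libraries, 0.669 to 0.861 between DRG libraries and 0.509 to 0.767 across the ganglia. Of 7721 genes reaching 50 CPM in an NG/JG library, 1140 (14.8%) had no read in another NG/JG library, against 37 of 6373 (0.581%) in the DRG. NG/JG library 4 detected the fewest genes and stood apart on the first principal component, and in DRG library 4 66.64% of reads lay outside genes, against 32.02% to 46.99% in the other 7. Where leaving out either of these libraries, or both, turned a list's median or moved its printed count of unadjusted edgeR p under 0.05 by over 1.5 times, the values without them are given with the list. The count filter was set anew in each of these fits, so the genes tested can differ between them. No list was recomputed without any of the other libraries.

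Hox genes of high paralog number had reads almost only in the DRG libraries. Of 16 genes with paralog numbers 9 to 13, 4 had enough reads to be tested (Hoxa9, Hoxa10, Hoxc9 and Hoxc10), and they reached the count filter through the DRG libraries alone, so nothing is read from the number that passed the test. Summed over the 16 genes, NG/JG libraries held at most 0.143 CPM and DRG libraries 45.7, 77.9, 113.8 and 91.5 CPM. Hoxa10, a patterning gene of lumbar segments at chr6:52181196-52190853 (mm9), had no read in any NG/JG library and 17.2, 31.9, 46.2 and 10.3 CPM in the DRG. That is at least 335-fold lower in NG/JG, with 3 reads over the group as the floor (DESeq2 adjusted p 6.14e-08). Its neighbour Hoxa9 had 1 read in all of NG/JG and 17.7, 19.5, 36.5 and 14.5 CPM in the DRG, a pooled ratio of DRG to NG/JG of 807 (95% exact counting interval 144.5 to 31920, counting error only, DESeq2 adjusted p 3.16e-07). Hoxc9 was also without reads in NG/JG and reached 4.33, 4.04, 7.22 and 10.3 CPM in the DRG, at least 67.4-fold lower in NG/JG (DESeq2 adjusted p 0.0095). Hoxc10 had 1 read in NG/JG and 4.33, 9.81, 4.70 and 1.39 CPM in the DRG (DESeq2 adjusted p 0.0363). The 12 untested genes of this class had at most 0.122 CPM in an NG/JG library. Hoxd9 had 0.282, 8.56, 9.0 and 19.8 CPM in the DRG, while Hoxb13, Hoxc11, Hoxc12, Hoxc13, Hoxd12 and Hoxd13 had reads only in DRG library 4, the DRG library in which the most genes were detected.

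**Figure D1:**
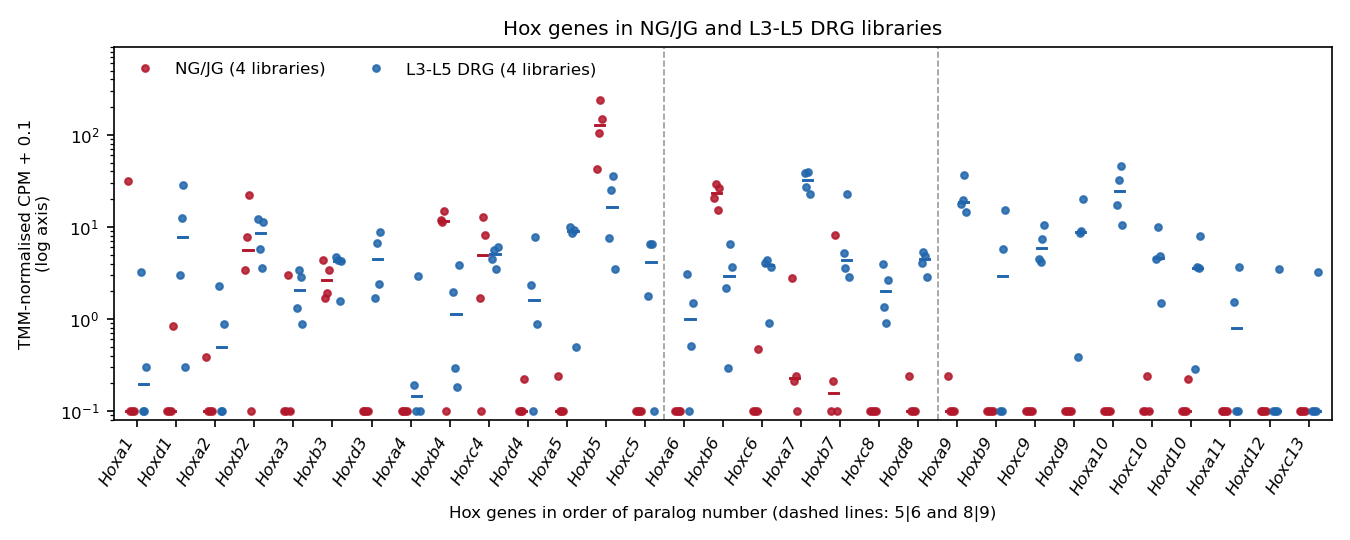
Level of each Hox gene that reached 2 CPM in a library, in order of paralog number, as TMM-normalised CPM plus 0.1 on a log axis, with 1 point per library and a bar at the median. NG/JG points (red) lie at or near the bottom of the axis for paralogs 9 to 13, while Hoxb5 and Hoxb6 are higher in all 4 NG/JG libraries than in any L3-L5 DRG library (blue).

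Hox genes of low and middle number differed in both directions. Of 15 genes with paralog numbers 1 to 5, 7 were tested, 4 with positive and 3 with negative fold changes (median 0.03), and 1 in each direction had an unadjusted edgeR p under 0.05. These counts changed when libraries numbered 4 were left out, which also let more genes pass the count filter. Genes almost without reads in NG/JG, such as Hoxd3, could be called lower only, so nothing is read from the counts of lower genes. Without NG/JG library 4, 10 genes were tested, with 1 higher and 4 lower at that p (median -0.75). Without DRG library 4, 10 were tested, again with 1 higher and 4 lower (median -1.02). With both left out, 2 were higher and 4 lower (median -0.85). Hoxb5, used in the vagal hindbrain and neck, was at 42.2, 106, 237 and 150.3 CPM in NG/JG and 7.44, 25.2, 35.9 and 3.37 CPM in the DRG, so the lowest NG/JG library stood just above the highest DRG library (log2 fold change 2.89 ± 0.86 (SE), DESeq2 adjusted p 0.0184). Hoxb4 was at 11.9, 11.1, 14.9 and 0 CPM in NG/JG and at most 3.76 CPM in the DRG, with NG/JG library 4 at 0 and thus overlap (log2 fold change 2.68 ± 1.84 (SE), DESeq2 adjusted p 0.757). Hoxd3 ran the other way, without reads in NG/JG and at 1.60, 6.54, 2.27 and 8.71 CPM in the DRG, at least 46.2-fold lower in NG/JG (DESeq2 adjusted p 0.0563, not called). Of the 8 genes numbered 6 to 8, 4 were tested (median -3.73) and 2 lower in NG/JG had an unadjusted p under 0.05, against 4 of 6 without NG/JG library 4. The 2, Hoxa7 and Hoxd8, reached the count filter through the DRG libraries alone, so nothing is read from these counts. Hoxa7 was at 2.72, 0.115, 0.140 and 0 CPM in NG/JG and 38, 27, 39.4 and 22.6 CPM in the DRG (DESeq2 adjusted p 0.00323), and its exons share 20.4% of their length with a gene on the other strand. Hoxd8 had 1 read in NG/JG and 3.96, 5.29, 4.78 and 2.77 CPM in the DRG (DESeq2 adjusted p 0.0546). Hoxb6, next to Hoxb5, was at 20.6, 29, 15.2 and 26.1 CPM in NG/JG against 2.07, 0.193, 6.41 and 3.56 CPM in the DRG without overlap, but was called by neither tool (log2 fold change 2.89 ± 1.30 (SE), DESeq2 adjusted p 0.114). Hoxb2, Hoxb3 and Hoxc4 overlapped, with log2 fold changes of 0.03, -0.39 and 0.21. The exons of Hoxb2 and Hoxb3 share 49.4% and 37.9% of their length with a gene on the other strand. Those of Hoxd3 share 35.8% with other genes.

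The promoter of Hoxa10 is shown because the gene had no reads in any vagal library, and that of Mrgprd because it had the lowest p of all genes. The windows are RefSeq sequences of build GRCm38.p6 and run from 250 bases before to 50 after the annotated start, in the direction of transcription. The counts themselves were made on mm9. Hoxa10 (chr6:52234890-52235189, minus strand, 1 of 2 listed starts) holds 21 CG pairs and Mrgprd (chr7:145314585-145314884, plus strand) holds 2, against a median of 7 over 32851 windows. The capitals mark TATAAA on the other strand, which starts 160 bases before the start site in Hoxa10 and occurs on either strand in 13.6% of all windows. A match is a description and not a shown site.
Hoxa10: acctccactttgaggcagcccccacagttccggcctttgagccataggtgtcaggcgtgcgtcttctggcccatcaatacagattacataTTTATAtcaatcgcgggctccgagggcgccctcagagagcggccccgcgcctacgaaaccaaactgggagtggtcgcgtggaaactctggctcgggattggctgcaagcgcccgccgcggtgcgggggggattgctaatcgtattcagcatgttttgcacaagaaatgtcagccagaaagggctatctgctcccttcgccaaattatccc
Mrgprd: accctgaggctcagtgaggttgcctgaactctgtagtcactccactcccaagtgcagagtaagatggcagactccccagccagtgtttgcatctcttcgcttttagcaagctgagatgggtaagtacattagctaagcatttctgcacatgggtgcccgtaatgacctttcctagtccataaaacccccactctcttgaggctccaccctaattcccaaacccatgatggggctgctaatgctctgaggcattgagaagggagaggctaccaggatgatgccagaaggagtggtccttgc

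Transcription factors of sensory neuron identity mostly overlapped between the ganglia. Among 12 tested factors of crest-derived sensory neurons, 8 had negative fold changes (median -1.65). Of these 12, 2 lower and 1 higher in NG/JG had an unadjusted p under 0.05, and DESeq2 called 1, Pou4f3. Among all tested genes, 3.68% were lower and 2.35% higher at that p, and DESeq2 called 2.14% lower. The 1 higher gene was no longer past that p without NG/JG library 4 or without DRG library 4, and with both left out 3 were lower. Pou4f3, a POU-domain factor of mechanosensory neurons, had no reads in NG/JG and 2.17, 3.94, 9.41 and 4.75 CPM in the DRG, at least 60.1-fold lower in NG/JG (DESeq2 adjusted p 0.0384). Prdm12, required for nociceptor development, was at 0.429, 20.7, 4.32 and 0.122 CPM in NG/JG and 113, 209, 116 and 4.55 CPM in the DRG, where library 4 lay inside the NG/JG range (DESeq2 adjusted p 0.0581, not called). Runx1, a factor of non-peptidergic nociceptors, was at 41.9, 0.458, 0.697 and 0 CPM in NG/JG and 102, 121, 91.6 and 5.15 CPM in the DRG, with NG/JG library 1 alone among the vagal libraries above 1 CPM. The pan-sensory factors Isl1 (log2 fold change 0.06) and Pou4f1 (-2.20) overlapped and were called by neither tool. Cux2, a homeobox gene, was at 4.58, 7.79, 5.72 and 104 CPM in NG/JG and 2.26 to 4.38 CPM in the DRG without overlap, and DESeq2 gave it no adjusted p. Of 7 tested factors of placodal and visceral neurons, 3 had positive and 4 negative fold changes (median -1.17), and none had an unadjusted edgeR p under 0.05 or a DESeq2 call, while 1 of 8 in each direction had such a p without NG/JG library 4. Eya1, which acts in placode development, was at 16.3, 48.6, 104 and 5.88 CPM in NG/JG and 0.282, 10.4, 0 and 3.17 CPM in the DRG, where the NG/JG minimum lay below the DRG maximum (DESeq2 adjusted p 0.224). Phox2a, a visceral neuron factor, had reads in NG/JG only in library 1, at 9.30 CPM, and its exons share 26.1% of their length with a gene on the other strand.

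In each of the serotonin, P2X and nicotinic receptor lists DESeq2 called 1 gene higher in NG/JG, and in the serotonin and nicotinic lists it also called 2 and 1 lower. The median of the serotonin list was -0.06 over 5 tested genes, and 0.07 over 7 without both libraries numbered 4. Htr3a, the main subunit of the 5-HT3 serotonin receptor at chr9:48707319-48719204 (mm9), was at 148, 378, 1013 and 666 CPM in NG/JG and 1.22, 28.7, 127 and 14.7 CPM in the DRG. No NG/JG library overlapped a DRG library (log2 fold change 3.68 ± 1.14 (SE), DESeq2 adjusted p 0.0119). Its partner subunit Htr3b stayed at or below 16.7 CPM in all 8 libraries. P2rx2, an ATP-gated channel subunit at chr5:110768831-110772168 (mm9), was at 187, 37, 976 and 0.122 CPM in NG/JG and 6.12, 10.2, 10.7 and 2.57 CPM in the DRG. The first 3 NG/JG libraries lay above every DRG library, and NG/JG library 4, with 1 read, below all of them (log2 fold change 5.33 ± 1.69 (SE), DESeq2 adjusted p 0.00328). P2rx3, which assembles with P2rx2, overlapped at 156, 39.6, 450.3 and 0.735 CPM in NG/JG and 153, 585, 449.8 and 30.1 CPM in the DRG. The other 2 tested P2X genes, P2rx4 and P2rx7, had log2 fold changes of -0.37 and 0.48. Chrnb4, a nicotinic receptor subunit of autonomic and visceral neurons, was at 0.429, 81.4, 238 and 285 CPM in NG/JG and at most 8.51 CPM in the DRG, with overlap (DESeq2 adjusted p 0.001). Chrna3, its usual partner, was at 0, 40.2, 308 and 0.122 CPM in NG/JG and at most 4.36 CPM in the DRG, with too few libraries above the count filter for a test. Ntrk2, the BDNF receptor TrkB, was at 575, 494, 769 and 424 CPM in NG/JG and 345, 216, 252 and 304 CPM in the DRG without overlap (log2 fold change 1.02 ± 0.33 (SE)), but was not called by DESeq2 (adjusted p 0.0704). Efcab6, which encodes an EF-hand protein, was at 8.59, 40.2, 95.7 and 101 CPM in NG/JG and at most 3.37 CPM in the DRG (DESeq2 adjusted p 0.000187).

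Receptors for gut and metabolic signals had no common direction. Of 23 listed, 9 were tested, 6 with positive fold changes (median 0.69), and only Agtr1a, which was lower in NG/JG, had an unadjusted edgeR p under 0.05. The direction of the median was not stable. Without NG/JG library 4, 4 of 11 tested had positive fold changes (median -0.58), and 2 were lower at an unadjusted p under 0.05. With both libraries numbered 4 left out, the median was -0.44. Without DRG library 4 it was 0.96, with 1 gene higher and 1 lower at that p. Cckar, the cholecystokinin receptor of vagal afferents, was at 0.429, 44.4, 124 and 0.122 CPM in NG/JG and 6.69, 44.5, 13.6 and 6.54 CPM in the DRG. Npy2r, the peptide YY receptor, was at 3.87, 61.6, 67.6 and 0.122 CPM in NG/JG and 13.1, 32.4, 0 and 0.990 CPM in the DRG. Both were above 40 CPM in NG/JG libraries 2 and 3 and below 4 CPM in libraries 1 and 4, so the vagal range enclosed the DRG range or overlapped it. Glp1r, the GLP-1 receptor, had no read in any NG/JG library and reads in DRG library 4 only. Agtr1a, an angiotensin II receptor, was at 0.573, 0, 0.140 and 0.245 CPM in NG/JG and 29, 42, 32.5 and 10.5 CPM in the DRG (log2 fold change -6.83 ± 1.60 (SE), DESeq2 adjusted p 3.18e-07). Vip, a peptide of some airway and gut afferents, was at 448 CPM in NG/JG library 3 and at most 0.429 CPM in the other 7 libraries.

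Of 3 tested Mas-related receptors, DESeq2 called 2, both lower in NG/JG. Both reached the count filter through the DRG libraries alone, so nothing is read from that number. Mrgprd, a Mas-related receptor that marks non-peptidergic nociceptors of the skin, lies at chr7:152500740-152509964 (mm9). It was at 0.716, 0.687, 1.95 and 0.245 CPM in NG/JG and 276, 783, 432 and 23.8 CPM in the DRG (log2 fold change -8.71 ± 1.19 (SE), edgeR unadjusted p 2.35e-05, adjusted p 0.168, DESeq2 adjusted p 7.23e-17). Every DRG library lay more than 10-fold above every NG/JG library. Mrgpre was at 1.0, 0.344, 7.67 and 0 CPM in NG/JG and 47.6, 48, 181 and 21 CPM in the DRG (DESeq2 adjusted p 0.00639). The third tested receptor of the 13 listed, Mrgprf, overlapped (log2 fold change 0.20). Of the 10 untested, 6 had no read in NG/JG, but most of these were also near 0 in the DRG. Mrgpra1, Mrgpra4 and Mrgprb1 reached at most 0.594 CPM in a DRG library and Mrgprb4 2.57 CPM, while Mrgpra2a and Mrgpra2b reached 6.41 and 8.76 CPM. The 2 genes at an unadjusted edgeR p under 0.05 became 5 of 6 tested without NG/JG library 4, and also without DRG library 4 or without both. Genes almost without reads in NG/JG could be called lower only, so nothing is read from this change either.

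Of 8 tested sensory neuropeptides, 7 had negative fold changes (median -1.90), and 3 had an unadjusted edgeR p under 0.05, a DESeq2 call and no overlap. The shares of all tested genes lower in NG/JG were 3.68% at that p, 2.14% by DESeq2 and 5.19% without overlap. Without DRG library 4, or without both libraries numbered 4, the count of 3 was 5 of 9 tested. The 3 were Calca and Calcb, which encode CGRP alpha and beta, and Tac1, the substance P precursor. Calca was at 61.1, 209, 5.02 and 2.45 CPM in NG/JG and 879, 2540, 3642 and 304 CPM in the DRG (log2 fold change -4.73 ± 1.38 (SE), DESeq2 adjusted p 0.00161). Calcb was at 0.429, 2.86, 4.18 and 0.735 CPM in NG/JG and 77, 333, 202 and 22.8 CPM in the DRG (log2 fold change -6.26 ± 1.13 (SE), DESeq2 adjusted p 1.80e-08). Tac1 was at 108, 17.2, 27.1 and 1.96 CPM in NG/JG and 332, 1233, 1541 and 112 CPM in the DRG (log2 fold change -4.39 ± 1.19 (SE), DESeq2 adjusted p 0.00138). Adcyap1, the PACAP precursor, overlapped at 44.9 to 297 CPM in NG/JG and 23.6 to 348 CPM in the DRG.

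**Figure D2:**
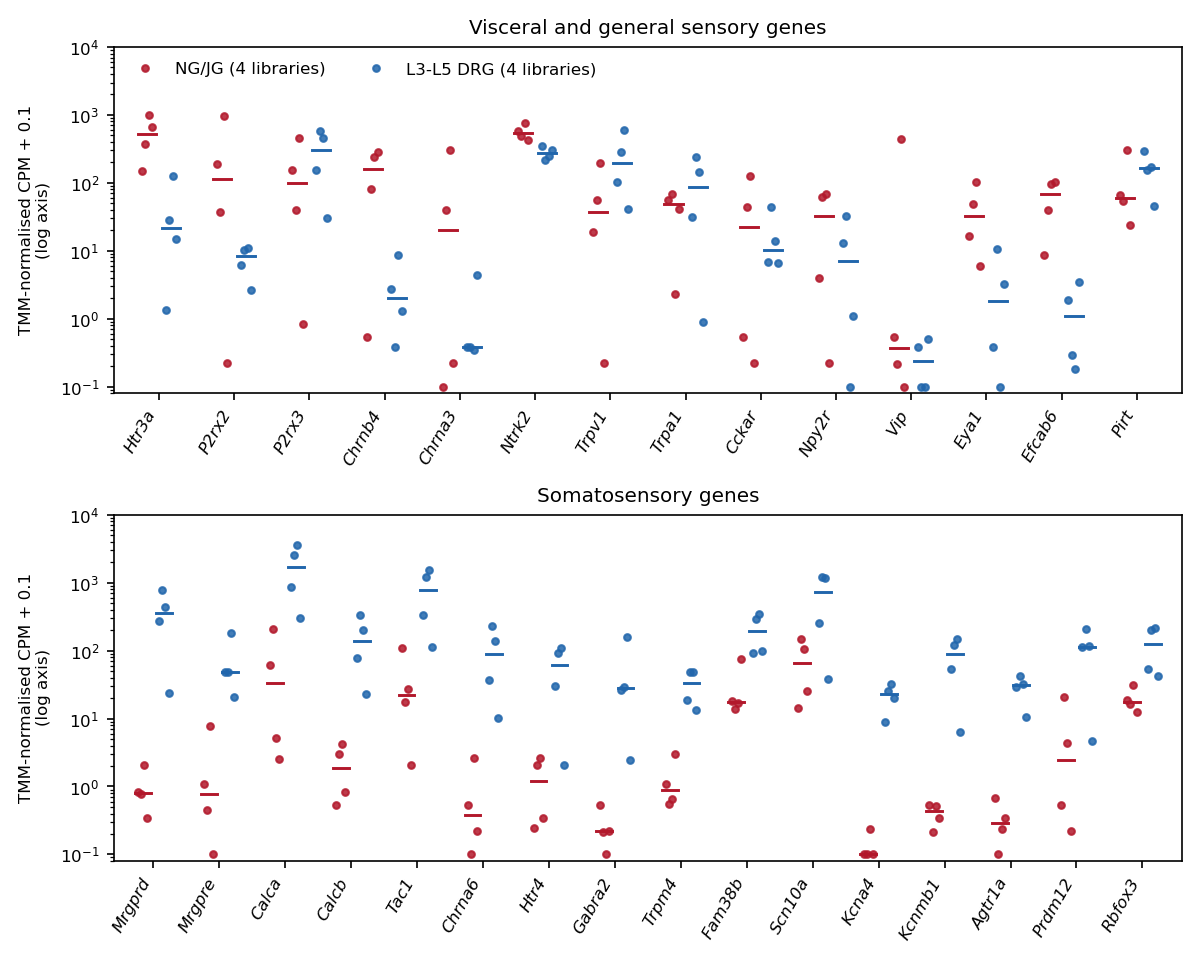
Level of selected receptor, channel, peptide and transcription factor genes in each library, as TMM-normalised CPM plus 0.1 on a log axis, with 1 point per library and a bar at the median. Htr3a and Ntrk2 lie higher in all NG/JG libraries (red), P2rx2, Chrnb4, Cckar and Npy2r span several orders of magnitude within NG/JG, and Mrgprd, Calca, Calcb and Tac1 lie higher in all L3-L5 DRG libraries (blue).

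Transduction channels differed gene by gene. Of 13 tested TRP channels, 9 had negative fold changes (median -1.64), with 2 lower and 1 higher in NG/JG at an unadjusted p under 0.05. At that p, 3.68% of all tested genes were lower and 2.35% higher. Trpm8, the cold and menthol receptor, had no reads in NG/JG and 1.22, 1.73, 5.51 and 5.15 CPM in the DRG, at least 36.8-fold lower in NG/JG (DESeq2 adjusted p 0.167, not called). Trpm4, a calcium-activated cation channel, was at 1.0, 0.458, 0.558 and 2.94 CPM in NG/JG and 18.9, 47.8, 47.6 and 13.3 CPM in the DRG (DESeq2 adjusted p 0.000129). Trpm7, a channel with a kinase domain, was higher in NG/JG, at 141, 53.3, 139 and 254 CPM against 57, 67.8, 30.2 and 62.8 CPM, but overlapped (DESeq2 adjusted p 0.214). Trpv1, the capsaicin and heat receptor, and Trpa1, the irritant receptor, overlapped. Trpv1 was at 18.5, 55, 194 and 0.122 CPM in NG/JG and 102, 288, 604 and 40.8 CPM in the DRG. All 6 tested acid-sensing and Piezo channels had negative fold changes (median -1.26). The touch channel Piezo2, listed as Fam38b, was at 17.9, 13.6, 16.6 and 74.6 CPM in NG/JG and 93.3, 289, 345 and 99.6 CPM in the DRG (log2 fold change -2.75 ± 0.74 (SE), DESeq2 adjusted p 0.0139).

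Receptors for transmitters and growth factors also included genes higher in the DRG. Chrna6, a nicotinic subunit, was at 0.429, 0, 2.51 and 0.122 CPM in NG/JG and 36.7, 228, 141 and 10.1 CPM in the DRG (log2 fold change -7.07 ± 1.63 (SE), DESeq2 adjusted p 6.30e-06). Among serotonin receptors, Htr4 was at 0.143, 1.95, 2.51 and 0.245 CPM in NG/JG and 30.1, 92.1, 111 and 1.98 CPM in the DRG (DESeq2 adjusted p 0.000496), and Htr1d at 0.429, 0, 0.279 and 0 CPM and 1.13, 3.46, 56.2 and 9.31 CPM (DESeq2 adjusted p 0.00657). Gabra2, a GABA-A receptor subunit, was at 0.429, 0.115, 0 and 0.122 CPM in NG/JG and 25.9, 29.4, 161 and 2.38 CPM in the DRG (DESeq2 adjusted p 4.77e-07). Oprl1, the nociceptin receptor, was at 0, 0, 0.837 and 0.245 CPM in NG/JG and 4.52, 52.2, 60.9 and 11.5 CPM in the DRG (DESeq2 adjusted p 0.000174). Of 12 tested glutamate receptors, 1 was called by DESeq2. This was Grik1, a kainate receptor subunit, at 2.15, 55.5, 18.6 and 0.735 CPM in NG/JG and 193, 903, 639.9 and 12.5 CPM in the DRG (adjusted p 0.0095). Ret, the signalling receptor for GDNF family ligands, was at 26.2, 43.1, 76.8 and 0.735 CPM in NG/JG and 245, 715, 502 and 41.8 CPM in the DRG (log2 fold change -3.36 ± 1.15 (SE), DESeq2 adjusted p 0.0448), with NG/JG library 3 above DRG library 4. Ntrk3, the NT-3 receptor, was at 34.5, 94.6, 0.976 and 141 CPM in NG/JG and 38.9, 50.0, 17.8 and 37 CPM in the DRG, and was not called (log2 fold change 0.92 ± 1.06 (SE), DESeq2 adjusted p 0.969).

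Of the listed voltage-gated channel genes, DESeq2 called 3 potassium channels, 1 sodium channel and the HCN channel Hcn3, all lower in NG/JG. The 3 potassium channels and Hcn3 reached the count filter through the DRG libraries alone, so they could be called lower only. Nothing is read from that number or its direction. Of 25 tested voltage-gated potassium channel genes, 19 had negative fold changes (median -1.54), 4 lower and 0 higher in NG/JG had an unadjusted edgeR p under 0.05 (a block for the replicate number gave 10 and 1), and DESeq2 called 3. These 3 were Kcna4, Kcns1 and Kcnv1. Of all tested genes, 3.68% were lower and 2.35% higher in NG/JG at that unadjusted p, and DESeq2 called 2.14% lower. Kcna4, an A-type channel, had 1 read in NG/JG and 8.95, 25, 32.7 and 20.2 CPM in the DRG, a pooled ratio of DRG to NG/JG of 760 (95% exact counting interval 136.0 to 30040, DESeq2 adjusted p 5.37e-07). Kcns1, a modulatory subunit, was at 0.286, 0, 2.37 and 0 CPM in NG/JG and 7.63, 14.2, 40.0 and 36.4 CPM in the DRG (DESeq2 adjusted p 0.0299). Kcnmb1, the beta subunit of the calcium-activated BK channel, was at 0.429, 0.115, 0.418 and 0.245 CPM in NG/JG and 54.2, 123, 150.3 and 6.14 CPM in the DRG (log2 fold change -8.06 ± 1.27 (SE), DESeq2 adjusted p 2.77e-11). Of 14 tested sodium channel genes, DESeq2 called Scn10a alone. Scn10a, which encodes the nociceptor channel Nav1.8, was at 14.3, 146, 106 and 25.7 CPM in NG/JG and 253, 1228, 1188 and 38.4 CPM in the DRG, with DRG library 4 inside the NG/JG range (log2 fold change -3.21 ± 1.06 (SE), DESeq2 adjusted p 0.036). Of 13 tested calcium channel genes, 11 had negative fold changes (median -2.04) and none had an unadjusted edgeR p under 0.05 or a DESeq2 call, while 1, lower in NG/JG, had such a p without DRG library 4. The 4 HCN pacemaker genes all had negative fold changes, and Hcn3 was at 1.15, 0.229, 2.09 and 0 CPM in NG/JG and 8.66, 27, 38.3 and 20.8 CPM in the DRG (DESeq2 adjusted p 0.00704). Its exons share 17.1% of their length with a gene on the other strand. None of 8 tested two-pore potassium channels had an unadjusted edgeR p under 0.05 or a DESeq2 call. Lower in NG/JG at that p were 3 of 10 without NG/JG library 4, 1 of 9 without DRG library 4 and 3 of 9 without both.

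Of 9 tested large-fibre genes, DESeq2 called 2, both calcium-binding proteins and both lower in NG/JG. Both reached the count filter through the DRG libraries alone, so nothing is read from that number. Pvalb, which marks proprioceptors, had 2 reads in NG/JG and 4.33, 1.16, 17.5 and 7.72 CPM in the DRG, a pooled ratio of DRG to NG/JG of 138 (95% exact counting interval 37.95 to 1147, DESeq2 adjusted p 0.0119). Calb1, the calcium buffer calbindin, had 2 reads in NG/JG and 1.51, 32, 10.2 and 2.57 CPM in the DRG, a ratio of 215.5 (59.35 to 1785, DESeq2 adjusted p 0.00331). The neurofilament genes Nefl, Nefm and Nefh had log2 fold changes of -0.83, -0.60 and -0.89, and all overlapped.

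**Figure D3:**
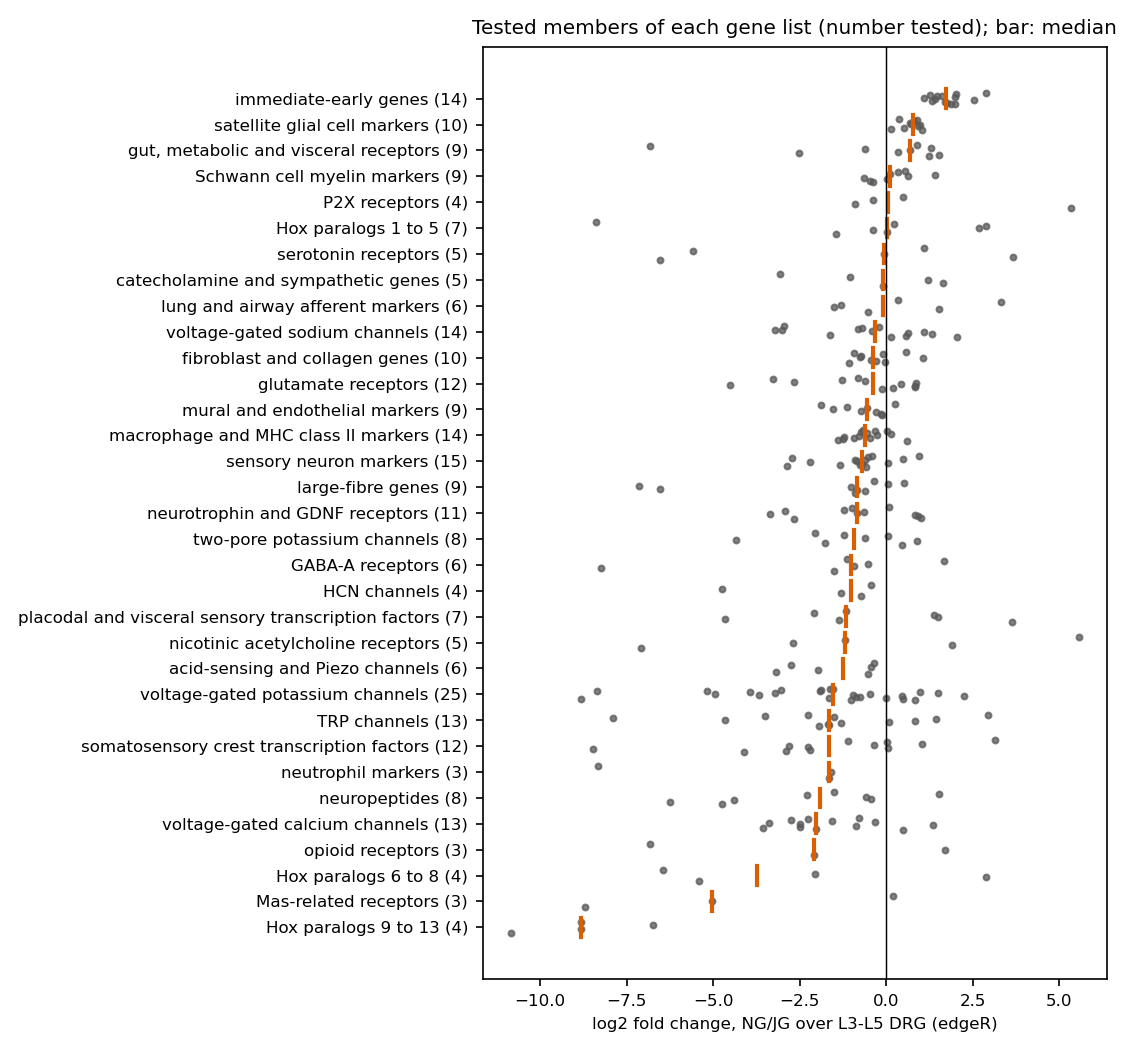
Log2 fold change (positive where NG/JG was higher) for each tested member of each gene list, with 1 point per gene, an orange bar at the list's median and the number tested in parentheses. Immediate-early genes and satellite glial markers lie above 0, with medians of 1.73 and 0.77. The 4 Hox genes of paralogs 9 to 13 lie far below 0, where NG/JG held at most 1 read per gene, so their fitted values depend on the prior count.

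Immediate-early genes, which are transcribed rapidly after stimulation, were higher in NG/JG as a list. All 14 had positive fold changes (median 1.73), 11 had an unadjusted edgeR p under 0.05, 9 had no overlap, and DESeq2 called 4 (Fos, Egr1, Btg2 and Atf3). Over all tested genes, 2.35% were higher in NG/JG at that p, 2.18% were higher there without overlap, and DESeq2 called 0.588% higher. Without NG/JG library 4 the count of 11 was 7, and without DRG library 4 it was 11. Egr1, a zinc finger factor, was at 2886, 6400, 2612 and 11340 CPM in NG/JG and 1508, 475, 229 and 1746 CPM in the DRG (log2 fold change 2.55 ± 0.73 (SE), DESeq2 adjusted p 0.0133). Fos, a subunit of the AP-1 factor, was at 7392, 14980, 7349 and 19520 CPM in NG/JG and 4229, 1995, 1148 and 5997 CPM in the DRG (log2 fold change 1.88 ± 0.59 (SE), DESeq2 adjusted p 0.0435). Atf3, a factor that responds to axon injury, was at 975, 2762, 509.9 and 6030 CPM in NG/JG and 351, 279, 152 and 598 CPM in the DRG (log2 fold change 2.90 ± 0.77 (SE), DESeq2 adjusted p 0.00474). In each of these 3 genes NG/JG library 4 was the highest vagal library and DRG library 4 the highest lumbar library.

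**Figure D4:**
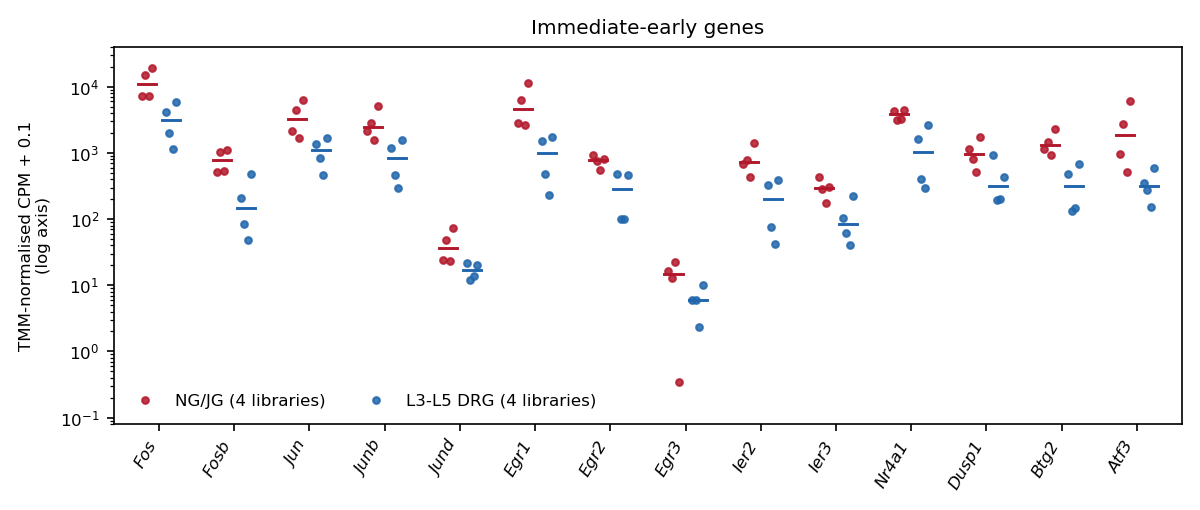
Level of each of the 14 immediate-early genes in each library, as TMM-normalised CPM plus 0.1 on a log axis, with 1 point per library and a bar at the median. The NG/JG median (red) lies above the L3-L5 DRG median (blue) for all 14, and the libraries do not overlap for 9.

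The genes below are not on this list, were among those with the lowest p and higher levels in NG/JG, and were each called by DESeq2. Being off the list does not set them apart in kind, as some, such as Arc and Rcan1, are also induced by activity or calcium signals. Rcan1, a calcineurin inhibitor induced by calcium signals, lies at chr16:92392198-92466391 (mm9). It was at 303, 338, 158 and 897 CPM in NG/JG and 38.1, 18.5, 29.4 and 51.1 CPM in the DRG (log2 fold change 3.63 ± 0.61 (SE), DESeq2 adjusted p 7.81e-07). Arc, an activity-regulated synaptic gene, was at 322, 123, 347 and 114 CPM in NG/JG and 40.2, 47.6, 29.5 and 26.7 CPM in the DRG (DESeq2 adjusted p 8.96e-05). Ifrd1, a transcriptional co-regulator, was at 575, 411, 284 and 831 CPM in NG/JG and 90.2, 65.3, 48.6 and 148 CPM in the DRG (DESeq2 adjusted p 8.85e-05). Cyr61, a secreted matricellular protein, was at 2467, 4288, 3254 and 7402 CPM in NG/JG and 826, 500.0, 182 and 1194 CPM in the DRG (DESeq2 adjusted p 0.000677). Gadd45g, a stress sensor, was at 299.8, 442, 374 and 664 CPM against 87.4, 106, 82.4 and 195 CPM, and Tnfrsf12a, the TWEAK receptor, at 244, 243, 58.3 and 576 CPM against 16.7, 9.62, 12 and 45.7 CPM. Irgm1 and Irgm2, GTPases induced by interferon, were at 614, 529, 175 and 1978 CPM and 222, 268, 156 and 321 CPM in NG/JG. In the DRG they were at 67, 13.5, 7.78 and 62 CPM and 63.1, 39.1, 36.2 and 74.1 CPM, and as related genes they may share reads. Ifit1, another interferon-induced gene, was at 187, 129.9, 153 and 571 CPM in NG/JG and 38, 36.2, 59.3 and 24.4 CPM in the DRG. The DESeq2 adjusted p of these 5 genes was 0.00225, 9.68e-05, 1.61e-05, 8.54e-05 and 0.00063. Pde4b, a cyclic AMP phosphodiesterase, was at 343, 673, 164 and 1131 CPM in NG/JG and 72.9, 48.5, 40.8 and 142 CPM in the DRG (DESeq2 adjusted p 0.000903). Acsbg1, an acyl-CoA synthetase of glia and brain, had the smallest standard error of them, at 883, 931, 1127 and 768 CPM in NG/JG and 381, 375, 309 and 397 CPM in the DRG (log2 fold change 1.34 ± 0.29 (SE), DESeq2 adjusted p 9.78e-05).

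The promoters of Btg2, a growth-arrest gene, and Rcan1 are shown because both genes were higher in every NG/JG library and both windows hold the full cyclic AMP response element TGACGTCA, marked in capitals. Btg2 was at 1151, 1460, 944 and 2305 CPM in NG/JG and 481, 133, 149 and 678 CPM in the DRG (log2 fold change 2.02 ± 0.58 (SE), DESeq2 adjusted p 0.0292). The element starts 166 bases before the start site in Btg2 (chr1:134079106-134079405, minus strand) and 175 bases before it in Rcan1 (chr16:92400029-92400328, minus strand, 1 of 2 listed starts), in RefSeq windows of GRCm38.p6. Both strands were searched, and 588 of 32851 windows (1.79%) hold it. Of the 14 immediate-early genes, 11 had a window, and 2 of these, Btg2 and Dusp1, hold the element. None of the windows of 22 Hox genes holds it.
Btg2: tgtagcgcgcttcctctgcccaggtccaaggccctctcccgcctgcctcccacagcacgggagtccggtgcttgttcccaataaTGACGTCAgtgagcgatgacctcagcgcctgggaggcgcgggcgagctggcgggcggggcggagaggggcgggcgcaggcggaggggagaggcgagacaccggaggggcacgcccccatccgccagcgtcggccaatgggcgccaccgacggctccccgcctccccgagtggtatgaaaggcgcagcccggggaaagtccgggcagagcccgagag
Rcan1: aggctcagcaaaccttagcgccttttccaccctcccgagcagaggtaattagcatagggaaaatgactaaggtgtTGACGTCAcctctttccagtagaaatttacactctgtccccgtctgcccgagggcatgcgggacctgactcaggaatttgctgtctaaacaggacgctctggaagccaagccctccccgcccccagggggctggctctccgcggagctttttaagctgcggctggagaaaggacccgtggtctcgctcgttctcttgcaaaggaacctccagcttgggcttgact

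The remaining genes with the lowest p and higher levels in the DRG had varied known roles. Tmem45b, a transmembrane protein gene, was at 1.0, 0.115, 1.12 and 0.612 CPM in NG/JG and 155, 410.2, 398 and 9.31 CPM in the DRG (log2 fold change -8.41 ± 1.27 (SE), DESeq2 adjusted p 1.73e-13). Sarm1, the NADase that drives axon degeneration, was at 0.143, 0.344, 0.140 and 0 CPM in NG/JG and 26.8, 93, 135 and 12.3 CPM in the DRG (log2 fold change -8.60 ± 1.45 (SE), DESeq2 adjusted p 1.95e-10). Inadl, a tight-junction scaffold gene also named Patj, was at 0.859, 0.573, 0.279 and 0.245 CPM in NG/JG and 57.7, 205, 118 and 17.6 CPM in the DRG (DESeq2 adjusted p 1.50e-13). Xylt2, a xylosyltransferase, had 3 reads in NG/JG and 59, 74.2, 14.5 and 26.3 CPM in the DRG, a pooled ratio of DRG to NG/JG of 503.5 (95% exact counting interval 172.0 to 2444, DESeq2 adjusted p 4.08e-09). Zfp775, a zinc finger gene, had 1 read in NG/JG and 28, 18.1, 33.9 and 18.8 CPM in the DRG (DESeq2 adjusted p 4.05e-08). Fam49b was at 2.15, 0.687, 3.07 and 0.367 CPM in NG/JG and 114, 37.7, 51.9 and 70.5 CPM in the DRG (DESeq2 adjusted p 1.63e-08), and B3gnt8, a glycosyltransferase, at 0, 0.115, 0.140 and 0.245 CPM and 24.1, 49.5, 28.7 and 16.6 CPM (DESeq2 adjusted p 4.08e-09). S100a9, an abundant neutrophil protein, was at 0.286, 0.115, 0.140 and 0.122 CPM in NG/JG and 132, 3.94, 25.9 and 68.3 CPM in the DRG (DESeq2 adjusted p 4.08e-09). The summed level of 6 neutrophil markers, S100a9 among them, ranged from 0.573 to 47.6 CPM in NG/JG and from 6.83 to 520 CPM in the DRG, and all 6 had the higher mean in the DRG. Beta-s, a haemoglobin beta gene, was at 1.0, 0.344, 0.976 and 0.245 CPM in NG/JG and 112, 27.2, 25.7 and 29.9 CPM in the DRG (DESeq2 adjusted p 4.99e-09). The 3 red cell markers, which do not include Beta-s, summed to at most 6.93 CPM in any library, and in each ganglion 2 of the 3 were at 0 in all libraries. With 2 of 3 markers unread, that sum cannot show how much red cell RNA was present.

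Marker genes of sensory neurons were present in every library, alongside abundant glial transcripts. The 10 neuronal markers summed to 1722, 5640, 6027 and 4241 CPM in NG/JG and 4238, 10610, 13040 and 1833 CPM in the DRG, with overlap, and 8 of the 10 had the higher mean in the DRG. Pirt, the reporter's driver gene, was at 66.3, 53.3, 306 and 23.9 CPM in NG/JG and 298, 156, 169.9 and 44.8 CPM in the DRG and overlapped. Rbfox3, which encodes the nuclear antigen NeuN, was at 18.6, 16.4, 31.4 and 12.4 CPM in NG/JG and 54, 199.9, 219 and 42.2 CPM in the DRG without overlap (log2 fold change -2.71 ± 0.71 (SE), DESeq2 adjusted p 0.00713). Avil, an actin-binding protein gene of sensory neurons, was at 37.6, 133, 55.5 and 111 CPM in NG/JG and 353, 1028, 999 and 77.4 CPM in the DRG, with DRG library 4 inside the NG/JG range (DESeq2 adjusted p 0.00918).

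The 6 satellite glial markers summed to 33600, 28700, 41110 and 31660 CPM in NG/JG and 26590, 16960, 11370 and 15890 CPM in the DRG, with all 6 means higher in NG/JG and no overlap of the sums. Apoe, a lipid carrier of satellite glia, made up most of it, and Fabp7, a fatty acid binding protein of glia, was at 2009, 1549, 2911 and 1932 CPM in NG/JG and 1230, 1214, 674 and 946 CPM in the DRG. Neither was called by DESeq2 (adjusted p 0.16 and 0.0809). The 6 Schwann cell markers summed to 10490 to 30840 CPM in NG/JG and 7784 to 42890 CPM in the DRG, and macrophage markers to 16.5 to 3140 CPM and 55.6 to 5164 CPM. Mural and endothelial markers summed to 41.6 to 232.8 CPM in NG/JG and 12.5 to 1451 CPM in the DRG, the highest value in DRG library 4. Markers of sympathetic neurons summed to 38.0 to 183.5 CPM and 11.9 to 205.7 CPM. No member of the airway afferent (6 tested, median -0.09), catecholamine and sympathetic (5, -0.09), macrophage (14, -0.61), mural and endothelial (9, -0.56) or fibroblast and collagen (10, -0.37) lists had an unadjusted edgeR p under 0.05 or a DESeq2 call. Left without NG/JG library 4, the airway list had 1 member higher and the mural and fibroblast lists 1 each lower at that p. Without DRG library 4 the catecholamine list had 1 higher, and the medians of the airway, catecholamine and mural lists turned to 0.25, 0.53 and 0.81. With both left out, the airway list had 1 higher, and the airway, mural and fibroblast medians were 0.58, 1.04 and 0.06. The part that satellite glial transcripts had in the immediate-early, Acsbg1 and Ntrk2 differences was not tested.

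**Figure D5:**
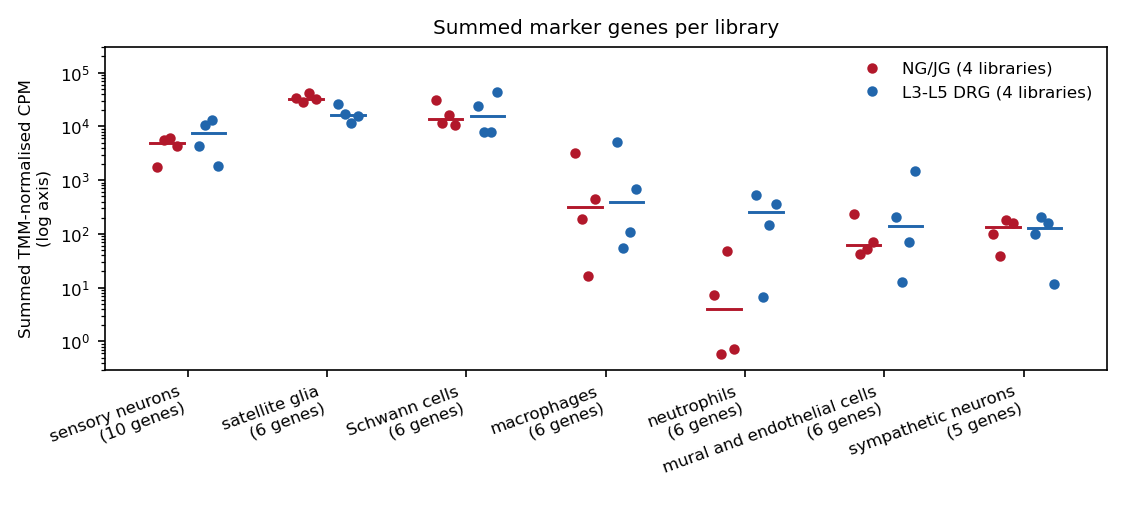
Summed TMM-normalised CPM of the marker genes of each cell type in each library, on a log axis, with 1 point per library and a bar at the median. Satellite glial sums are higher in all 4 NG/JG libraries (red) than in any L3-L5 DRG library (blue), and glial sums exceed the sensory neuron sum in every NG/JG library.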

How the data were processed

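Pirt/TdTomato+ cells were sorted from NG/JG and L3-L5 DRG (the trigeminal and T10-L1 libraries entered only an alternative fit), and SMART-seq2 libraries were sequenced as 50-base single reads. The deposited files hold raw read counts per gene symbol, which the authors made by aligning to mm9 with TopHat2 and counting with HTSeq (versions not given in the sources used here). Whether HTSeq used strand is not given, so overlapping genes on opposite strands cannot be told apart. Of reads in the 8 libraries used, 32.02% to 66.64% lay outside genes and were left out, and depth on genes was 4735624 to 12136228.

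Groups were taken from the labels. Low genes were removed with filterByExpr, TMM factors were set, and NG/JG was tested against L3-L5 DRG with edgeR 4.0.16 (glmQLFit and glmQLFTest) under Benjamini-Hochberg adjustment, with the 8 libraries and group as the only term. DESeq2 1.42.0 was the main alternative (R 4.3.3), and it gave no adjusted p for 480 genes. RPKM used exon lengths of GENCODE M1 on NCBIM37 (mm9), matched for 21657 of 22609 symbols. The 952 symbols without a length, Beta-s among them, had no RPKM and so could not meet the RPKM criterion. The script was tested on simulated counts. Fold bounds use a floor of 3 counts over the group, and 95% intervals are exact and cover counting error only. Gene lists, markers and the comparison were chosen with earlier results of these data known. Named genes were the 12 with the lowest p in each direction without overlap and with a mean of at least 10 CPM (clone names left out), the 3 with the lowest p per list and direction without overlap and with at least 2 CPM, genes of a defining role, and tested Hox genes. Genes named outside this rule (Chrnb4, Chrna3, Eya1, Vip, Trpm7, Htr4, Grik1, Avil, Atf3, Fos, Adcyap1 and single list members given by value) were chosen after their values were seen. Of the genes the rule gave, 2 are not reported here. Promoter windows are RefSeq, GRCm38.p6. The other alternatives were RLE factors, library totals, 2 count filters, all 16 libraries, a replicate block, bias-adjusted deviances, a robust fit, a likelihood-ratio test and leaving out libraries.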

Additional observations from a re-analysis of the deposited data

Results flagged for a closer look

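Over the 90 genes named by rule, 174 groups of 4 libraries had unequal values. In 28 of these 1 library stood apart from the other 3 by Dixon's criterion at 95%. Its chance rate of about 1 in 20 groups holds for normally distributed values only. A group with reads in 1 library and 0 in the other 3 is always flagged, so no excess is read from the 28. In 13 of the 28 the library's value was under 5 CPM. Levels are TMM-normalised CPM, and no cause was tested.

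Among NG/JG libraries, library 4 was high for Ifit1 at 571 CPM (130 to 187 in the other 3), for Cux2 at 104 CPM (4.58 to 7.79) and for Piezo2, listed as Fam38b, at 74.6 CPM (13.6 to 17.9). Library 3 was high for Pirt at 306 CPM (23.9 to 66.3), for Hoxb7 at 8.09 CPM (0 to 0.115) and for Mrgpre at 7.67 CPM (0 to 1). Library 1 was high for Runx1 at 41.9 CPM (0 to 0.697) and for Phox2a at 9.30 CPM (0 in the others), and library 2 for Htr3b at 16.7 CPM (0 to 1.12).

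Among L3-L5 DRG libraries, library 3 was high for Mrgpre at 181 CPM (21 to 48 in the other 3), for Gabra2 at 161 CPM (2.38 to 29.4), for Htr1d at 56.2 CPM (1.13 to 9.31), for Cacnb1 at 40.1 CPM (11.7 to 14.9) and for Hoxb7 at 22.9 CPM (2.77 to 5.09). Library 1 was high for the haemoglobin gene Beta-s at 112 CPM (25.7 to 29.9).

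The 13 low values came mostly from genes near 0 in NG/JG. Library 1 stood apart at 2.72 CPM for Hoxa7 (0 to 0.139 in the other 3), 1.43 CPM for Kcnk4 (0 in the others) and 0.286 CPM for S100a9 (0.115 to 0.139), and library 3 at 3.07 CPM for Six4 (0 to 0.122), 2.93 CPM for Hoxa3 (0) and 2.37 CPM for Kcns1 (0 to 0.286). A single read set the value for Hoxd8 and Hoxa9 in library 1 (0.143 CPM each), for Kcna4 and Hoxc10 in library 3 (0.139 CPM each) and for Zfp775 in library 4 (0.122 CPM). In the DRG, library 4 was high for Glp1r at 1.98 CPM (0 in the others) and library 3 low for Hoxb3 at 1.46 CPM (4.16 to 4.61).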

How the results depend on the processing

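The count of 0 genes past edgeR's adjusted p was 334 with DESeq2, 293 with a likelihood-ratio test, 83 with all 16 libraries in one fit, 6 with bias-adjusted deviances (Mrgprd, Calcb, Tmem45b, Fam49b, Ept1 and Rnf144a) and 2 with no filter on low counts (Mrgprd and Tmem45b). Leaving out 1 library gave 0 to 2, the 2 (Mrgprd and Tmem45b) without L3-L5 DRG library 4. At the relaxed criteria, the 56 genes higher in NG/JG became 93 with DESeq2, 91 with all 16 libraries, 135 with bias-adjusted deviances, 93 with no filter, and 51 to 95 when 1 library was left out (95 without NG/JG library 2, 86 without NG/JG library 3). The 190 higher in L3-L5 DRG became 322 with all 16 libraries, 357 with bias-adjusted deviances, 368 with mean CPM above 5 in place of RPKM, and 136 to 421 when 1 library was left out (421, 314 and 379 without NG/JG libraries 1, 2 and 3). Without both libraries numbered 4, an alternative chosen after seeing the data, the counts were 0, 56 and 253. The cause of these shifts was not tested. Scaling by library totals moved the median log2 fold change of all genes from 0.009 to -0.122.

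Labels do not say that replicate numbers mark shared animals, and the deviations of same-numbered libraries correlated at 0.182, 0.063, 0.169 and 0.049. DRG library 2 correlated best with NG/JG library 3 (0.111), and DRG library 4 with NG/JG library 1 (0.141). A block for the replicate number gave 0 genes past the test, 43 higher in NG/JG and 378 higher in L3-L5 DRG.

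Of 1581 recomputed fold changes of named genes, 1427 kept direction and side of the threshold, 138 passed it newly and 16 changed sign, all in 5 uncalled genes. With the replicate block the log2 fold change was -0.052 for Ntrk3, -1.631 for Cckar, -0.945 for Hoxb2 and -0.873 for Hoxc4. With 1 library left out it ranged from -0.250 to 2.252 for Cckar, -3.426 to 0.459 for Htr3b, -1.145 to 0.466 for Hoxb2 and -0.574 to 0.654 for Hoxc4, and Htr3b was at 0.067 without both libraries numbered 4. A gene without reads may have been present at up to 0.247 to 0.634 CPM, the value of 3 counts in each of the 8 libraries. The biological coefficient of variation was 1.179.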
